A study of Mus musculus with 34 samples.

Results

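Jun binding in BALB/cJ thioglycollate elicited macrophages (TGEMs) was compared between cells treated with Kdo2 lipid A (KLA), a ligand of TLR4, and cells treated with vehicle (Veh). The ChIP-seq peak lists of 2 of the series' 34 samples were used, chosen by the Balb/cJ genotype and the Jun antibody. Peaks of the KLA list and of the Veh list that overlapped by at least 1 bp were taken as 1 locus, which gave 16794 Jun loci, among 58770 loci over all BALB/cJ lists and 93024 over all lists of the series. The cells came from male mice of 8 weeks that had received thioglycollate, and the Veh arm received PBS and the KLA arm 1 h of KLA at 100 ng/mL. Both arms therefore share the elicitation with thioglycollate and the culture, and the PBS arm is not an unstimulated resident macrophage. Each arm has 1 list for all of its replicate experiments, which were combined by the irreproducible discovery rate (IDR) before deposition, so no spread between replicates could be had and no test between conditions was run. A locus absent from a list means only that no peak passed the IDR there. Intervals below are 95% Wilson intervals of a share of loci, or Newcombe intervals of a difference between shares. They cover the counting of loci and not the variation between mice.

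Jun is a basic leucine zipper protein of the AP-1 family, which binds DNA as a dimer with itself or with another member such as Fos, JunD, JunB or ATF3. The dimers recognise the TRE, a short palindrome-like element, or the slightly longer CRE. In macrophages AP-1 proteins sit at promoters and enhancers beside PU.1 and CEBP factors, and TLR4 ligation activates NF-κB and induces Fos and JunB within the first hour. Loci in the neighbourhood of 9 of 9 macrophage marker genes, Adgre1, Cd14, Cd68, Csf1r, Fcgr1, Itgam, Lyz2, Mertk and Spi1, carried Jun in at least 1 list, within 5 kb of the gene. The same held for 1 of 5 B cell, 2 of 6 T cell, 3 of 6 neutrophil and 2 of 7 fibroblast and mesothelium marker genes. No share over all protein coding genes is given by this 5 kb rule, so the marker counts have no background.

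The loci fell into 3 classes of similar size. KLA-only loci, with a Jun peak in the KLA list and none in the Veh list, numbered 5844 (34.8% of all Jun loci). Veh-only loci, with a peak in the Veh list alone, numbered 5481 (32.6%), and 5469 loci were shared. To show what these classes look like in sequence, the central 200 bases of the 2 KLA-only and 2 Veh-only loci with the highest counts, and of the shared locus with the highest KLA count, are given here from the plus strand of GRCm38. Exact matches to the TRE, TGACTCA or its reverse complement TGAGTCA, are in capitals. GRCm38 is the C57BL/6J reference, so differences carried by BALB/cJ are not shown.
Ifi203, KLA-only, chr1:173955198-173955397: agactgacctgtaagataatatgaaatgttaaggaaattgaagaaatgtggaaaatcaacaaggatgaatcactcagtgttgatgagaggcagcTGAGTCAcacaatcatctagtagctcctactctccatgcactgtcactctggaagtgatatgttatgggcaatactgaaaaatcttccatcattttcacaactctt
Fos, KLA-only, chr12:85513722-85513921: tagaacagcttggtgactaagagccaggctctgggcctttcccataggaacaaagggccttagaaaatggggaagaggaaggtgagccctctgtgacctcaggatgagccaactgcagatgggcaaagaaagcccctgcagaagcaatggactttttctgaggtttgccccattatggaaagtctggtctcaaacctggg
Lgals3, Veh-only, chr14:47371750-47371949: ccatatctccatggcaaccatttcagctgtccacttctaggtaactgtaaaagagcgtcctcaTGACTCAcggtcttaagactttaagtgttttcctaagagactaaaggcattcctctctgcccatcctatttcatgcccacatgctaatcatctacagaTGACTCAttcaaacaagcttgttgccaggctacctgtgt
Iqgap1, Veh-only, chr7:80830525-80830724: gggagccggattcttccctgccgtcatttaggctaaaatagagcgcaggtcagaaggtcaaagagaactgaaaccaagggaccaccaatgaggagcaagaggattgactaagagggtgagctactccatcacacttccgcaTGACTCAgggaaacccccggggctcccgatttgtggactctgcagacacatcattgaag
Mrpl39, shared, chr16:84627130-84627329: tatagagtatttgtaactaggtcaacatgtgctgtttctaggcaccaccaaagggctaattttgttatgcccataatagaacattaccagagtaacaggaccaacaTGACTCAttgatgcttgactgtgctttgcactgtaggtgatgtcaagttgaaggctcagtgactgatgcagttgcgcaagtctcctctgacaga
The Lgals3 window held 2 exact TREs and the Ifi203, Iqgap1 and Mrpl39 windows 1 each. The first of them began at base 95 of the Ifi203 window, base 64 of the Lgals3 window, base 142 of the Iqgap1 window and base 107 of the Mrpl39 window. No exact TRE lies in the Fos window.

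Whether a peak was found in both conditions depended on its count, the whole number of ChIP-seq tags that the list gives for it. The KLA list held 11317 peaks with a median count of 36 and a sum of 474082, and the Veh list 10957 peaks with a median of 30 and a sum of 387471. Counts are not scaled to library size, so peaks were ranked within their own list. In the strongest decile of the KLA list, with counts of 72 to 149, 85.4% of the peaks (83.2 to 87.4) overlapped the Veh list. In the weakest decile the share was 16.2% (14.1 to 18.4). The Veh list ran the same way, from 85.9% (83.8 to 87.9) to 19.9% (17.7 to 22.4). Accordingly the median count was 29 at KLA-only and 25 at Veh-only loci, against 46 (KLA) and 38 (Veh) at shared loci.

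**Figure D1:**
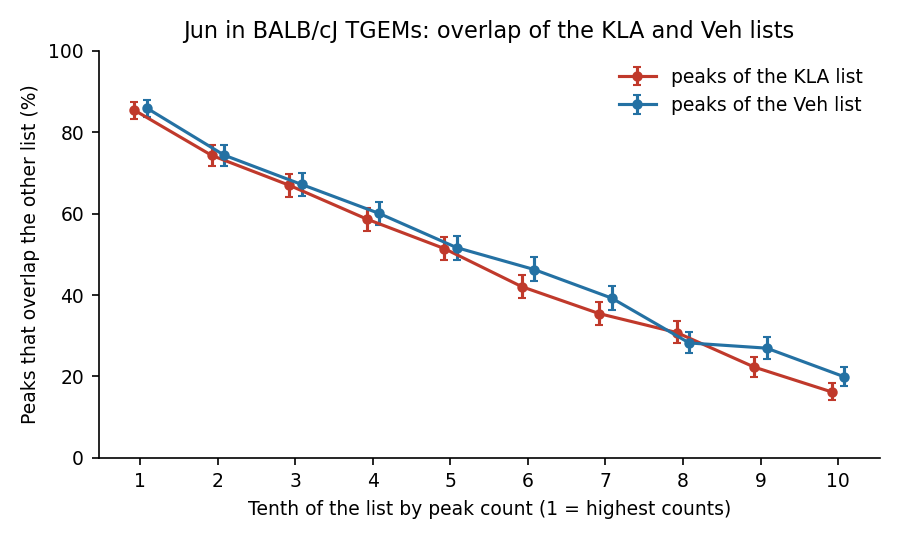
Share of Jun peaks (y axis, percent) of the KLA list (red) and the Veh list (blue) that overlap the other list, by decile of peak count (x axis, 1 = highest counts). Bars are 95% Wilson intervals. The 2 lines fall together, from 85.4% and 85.9% to 16.2% and 19.9%.

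KLA-only and Veh-only loci were mostly separate places in the genome. In all, 37 KLA-only loci had a Veh-only locus within 100 bp, and 230 (3.94%, 3.47 to 4.47) had one within 1000 bp. The strongest of these neighbours lay in an intron of Dcakd. A KLA-only peak at chr11:103006832-103007115 had a count of 111, and a Veh-only peak at chr11:103007145-103007358 had a count of 94. Both rank among the 8 highest of their class. The same ATF3, JunD, Fos and JunB peaks overlapped both.

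KLA-only loci lay closer to genes. Within 1 kb of the transcription start site (TSS) of a protein coding gene were 21.6% of KLA-only loci (20.5 to 22.7), against 9.98% of Veh-only loci (9.21 to 10.8) and 11.1% of shared loci (10.3 to 11.96). The median distance to the nearest TSS was 12594.5 bp for KLA-only, 18717 bp for Veh-only and 19082 bp for shared loci. Introns outside promoters held 40.3%, 47.3% and 44.6% of the KLA-only, Veh-only and shared loci, and intergenic sequence 36.3%, 40.1% and 42.3%. Exons held 1.83%, 2.55% and 2.05%. The promoter share differed by peak strength. It was 26.7% (25.2 to 28.3) of the KLA-only loci in the lowest tertile of the KLA list and 11.1% (9.27 to 13.2) of those in the highest. For Veh-only loci in the tertiles of the Veh list it was 13.2% (11.9 to 14.5) and 4.83% (3.64 to 6.38). In each tertile the KLA-only share stood above the Veh-only share, and in both classes the share was lowest among the strongest loci.

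The other BALB/cJ monomers divided the classes clearly. ATF3 had a Veh peak at 38.1% of KLA-only loci (36.9 to 39.4), at 72.8% of Veh-only loci (71.6 to 74.0) and at 90.3% of shared loci (89.5 to 91.1). JunD, the main Jun protein of the unstimulated lists by number of peaks, was present in Veh at 52.0% of KLA-only, 89.0% of Veh-only and 97.4% of shared loci. The difference between KLA-only and Veh-only loci was -34.7 points for ATF3 (-36.4 to -33.0) and -37.0 points for JunD (-38.5 to -35.5). The Fos list in Veh was empty and the JunB list in Veh held 9 peaks, so neither could be read in Veh.

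After KLA the order turned. ATF3 was found at 90.7% of KLA-only loci and 81.5% of Veh-only loci, a difference of 9.19 points (7.92 to 10.5). For JunD the shares were 89.0% and 68.9%, for Fos 92.7% and 81.6%, and for JunB 72.6% and 53.4%. These differences were 20.2 points (18.7 to 21.6), 11.1 points (9.92 to 12.4) and 19.2 points (17.4 to 20.9). For ATF3 and Fos they lay mostly among weak loci. In the lowest tertile of each Jun list ATF3 was at 84.0% of KLA-only and 70.5% of Veh-only loci, and Fos at 87.6% and 71.9%. In the highest tertile ATF3 was at 98.9% and 96.3%, and Fos at 99.2% and 95.7%. JunD and JunB still differed in the highest tertile, at 98.6% and 86.1% for JunD and 96.2% and 78.4% for JunB. All 4 of these KLA lists covered 3867 KLA-only loci (66.2%), 2529 Veh-only loci (46.1%) and 4853 shared loci (88.7%). At the other end, 466 Veh-only loci (8.50%, 7.79 to 9.27) were in none of the 4 lists.

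**Figure D2:**
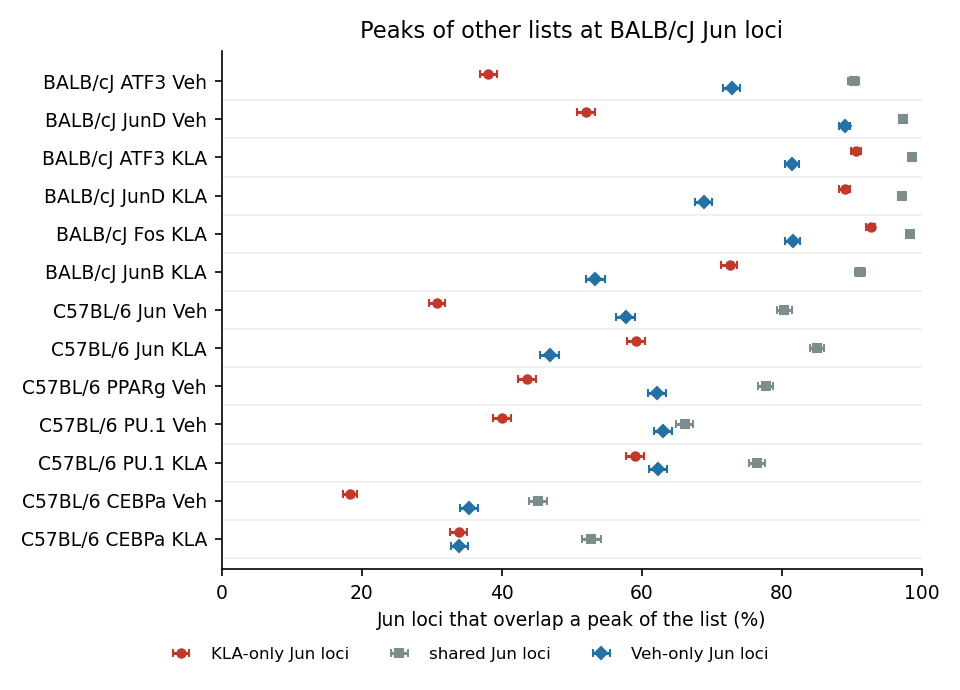
Share of KLA-only (red circles), shared (grey squares) and Veh-only (blue diamonds) Jun loci of BALB/cJ TGEMs that overlap a peak of another list (x axis, percent; 1 row per list), with 95% Wilson intervals. In the Veh lists the red points lie left of the blue ones (38.1% and 72.8% for ATF3), and in the KLA lists of ATF3, JunD, Fos and JunB they lie to the right.

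KLA-only loci were of 2 kinds by their Veh peaks. At 3525 of them (60.3%, 59.1 to 61.6) ATF3 or JunD had a peak in Veh. The other 2319 (39.7%) had neither in Veh. Of these, 1388 were covered by ATF3, JunD, Fos and JunB together after KLA. Only 62 KLA-only loci (1.06%, 0.829 to 1.36) and 126 Veh-only loci (2.30%, 1.93 to 2.73) overlapped no other BALB/cJ list.

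ATF3 and JunD differed in rank shift between the classes. The shift is the percentile rank of the count in the KLA list minus that in the Veh list, in points, for loci where the member has both peaks. ATF3 had a median shift of 22.8 points over the 2125 of its loci that met a KLA-only Jun locus and 5.40 points over the 3522 that met a Veh-only one, with 8.18 points over all 15813. JunD shifted by 10.0 points at 2809 KLA-only and by -7.47 points at 3504 Veh-only loci, with a median of -0.65 over all 17813. The KLA list is longer than the Veh list for ATF3 (36821 and 19506 peaks) and for JunD (33850 and 28652), and weak peaks in a longer list raise the rank of a locus found in both. The shifts are therefore given beside those over all loci of the same member and are not changes of binding in themselves. A rise of 25 points or more was seen at 46.5% of the ATF3 loci at KLA-only Jun loci, against 23.9% over all ATF3 loci. For JunD these shares were 29.3% and 12.9%. A fall of 25 points or more was seen at 20.5% of the JunD loci at Veh-only Jun loci, against 11.4% over all.

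The C57BL/6 lists (strain label C57Bl/6EiJ, male), which were not used to form the classes, were read at the same loci. Jun had a KLA peak in C57BL/6 at 59.2% of the KLA-only loci (58.0 to 60.5) and at 46.8% of the Veh-only loci (45.5 to 48.2), and a Veh peak at 30.7% and 57.7%. Of the 5844 KLA-only loci, 2157 (36.9%) were also KLA-only in C57BL/6, 1304 (22.3%) had both peaks, 493 (8.44%) had a Veh peak alone and 1890 (32.3%) had no Jun peak. Of the 5481 Veh-only loci, 1273 (23.2%) were also Veh-only in C57BL/6, 1890 (34.5%) had both peaks, 677 (12.4%) had a KLA peak alone and 1641 (29.9%) had none. Among shared loci 3943 (72.1%) were shared in both strains. The shares were higher at stronger loci. In the highest tertile of KLA-only loci 94.6% (93.0 to 95.8) had a C57BL/6 KLA peak and 44.8% (41.7 to 47.9) a C57BL/6 Veh peak. In the highest tertile of Veh-only loci 88.4% (86.3 to 90.3) had a C57BL/6 Veh peak and 76.9% (74.1 to 79.5) a C57BL/6 KLA peak. Most strong Veh-only loci of BALB/cJ thus had a Jun peak after KLA in the other strain, whose KLA and Veh lists are longer, with 17480 and 15548 peaks.

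Lineage factors were read from C57BL/6 lists. PPARγ, a nuclear receptor of lipid metabolism, had a Veh peak at 43.7% of KLA-only, 62.2% of Veh-only and 77.7% of shared loci. PU.1, the myeloid master regulator, was present in Veh at 40.01% of KLA-only and 63.0% of Veh-only loci, a difference of -23.0 points (-24.8 to -21.2), and after KLA at 59.1% and 62.4%. CEBPα was present in Veh at 18.4% and 35.3%, and after KLA at 33.9% and 34.0%, a difference of -0.0728 points (-1.82 to 1.67). PU.1 and CEBPα peaks of the KLA lists thus covered the KLA-only loci more often than those of the Veh lists. This was not particular to KLA-only loci. At shared loci PU.1 was at 66.1% in Veh and 76.5% in KLA, and CEBPα at 45.2% and 52.8%. The CEBPα list held 12892 peaks in Veh and 14802 in KLA, and the PU.1 list 41573 and 40645.

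KLA-only and Veh-only loci had near equal TRE shares over all positions and differed in several other motifs. Motifs were searched as exact letters on both strands in the central 200 bp of each locus. The same search over all 200 bp tiles of GRCm38 without unknown bases gave the background. Each motif was searched on its own, so the same bases can count for more than 1 of them. The TRE was present at 29.5% of KLA-only loci (28.3 to 30.6), 29.7% of Veh-only loci (28.5 to 30.9) and 45.9% of shared loci (44.6 to 47.3), against 3.10% of tiles. KLA-only minus Veh-only was -0.22 points (-1.91 to 1.46). Farther than 1 kb from a TSS the TRE was at 33.7% of KLA-only loci (32.4 to 35.1) and 30.98% of Veh-only loci (29.7 to 32.3). In promoters the order was reversed, with 13.96% of KLA-only (12.2 to 15.98) and 18.1% of Veh-only loci (15.1 to 21.5), and these intervals overlap. The near equal shares over all positions therefore do not show that the TRE is equally frequent at loci of the same position. At least 2 TREs were found at 3.76% of KLA-only, 2.12% of Veh-only and 7.33% of shared loci. The CRE (TGACGTCA) was rarer, with 3.13% of KLA-only (2.71 to 3.61), 1.31% of Veh-only (1.04 to 1.65) and 2.19% of shared loci, against 0.105% of tiles.

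The NF-κB motif, searched as a consensus of 10 letters, separated the classes most. It was present at 9.53% of KLA-only loci (8.80 to 10.3), 4.46% of shared loci (3.95 to 5.04) and 1.81% of Veh-only loci (1.49 to 2.19), against 1.44% of tiles. The difference between KLA-only and Veh-only loci was 7.72 points (6.90 to 8.57). It was present at 8.88% of KLA-only loci in promoters and 9.71% of those farther than 1 kb from a TSS. In the highest tertile of KLA-only loci it stood at 15.4% (13.3 to 17.8), and in that of Veh-only loci it was 1.37% (0.800 to 2.32). KLA-only loci with neither ATF3 nor JunD in Veh held it at 13.97% (12.6 to 15.4), and those with ATF3 or JunD in Veh at 6.61% (5.84 to 7.48). Their TRE shares were 28.1% and 30.4%.

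**Figure D3:**
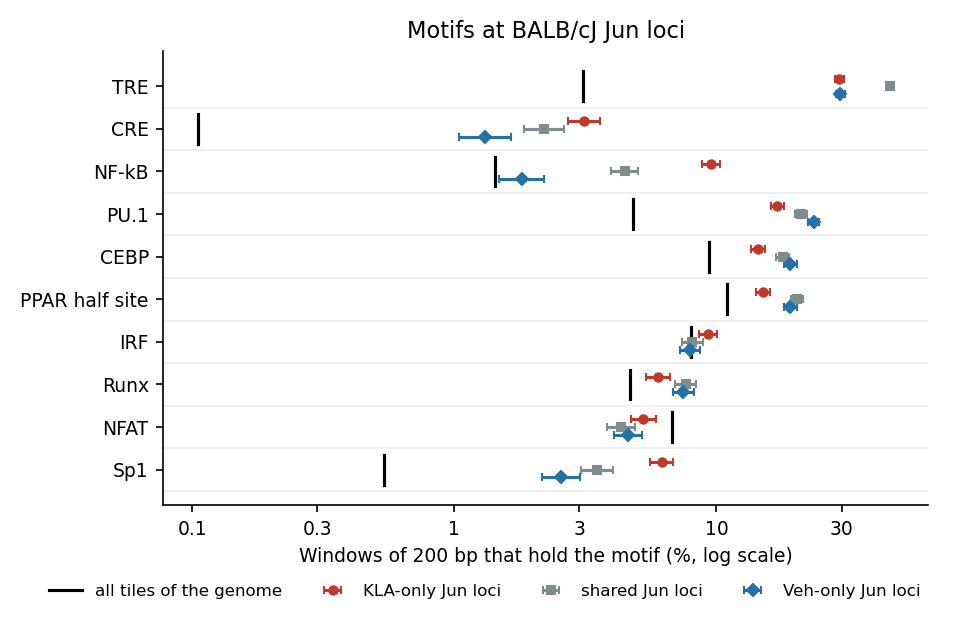
Share of the central 200 bp windows of KLA-only (red circles), shared (grey squares) and Veh-only (blue diamonds) Jun loci with an exact match to each motif (x axis, percent on a log scale), with 95% Wilson intervals. Black lines give the share of all 200 bp tiles of the genome. For NF-κB the KLA-only loci stand at 9.53% and the Veh-only loci at 1.81%, near the 1.44% of tiles, while the TRE shares of these classes are 29.5% and 29.7%.

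Motifs of lineage factors leaned to the Veh-only side. The PU.1 motif (ACTTCCT) was found at 17.0% of KLA-only and 23.5% of Veh-only loci, against 4.79% of tiles. The CEBP motif (TTGCNNAA) was at 14.4% and 19.1%, against 9.38% of tiles, and the short PPAR element (AGGTCA) at 15.1% and 19.2%, against 10.997%. These differences were -6.44 points (-7.92 to -4.96), -4.73 points (-6.11 to -3.36) and -4.05 points (-5.44 to -2.66). Runx (TGTGGTT) stood at 5.99% and 7.48%, against 4.67% of tiles. The Sp1 motif (CCCCGCCC), an element of GC-rich promoters, went the other way, with 6.18% of KLA-only and 2.55% of Veh-only loci, against 0.541% of tiles. In promoters it was found at 20.9% of KLA-only and 12.2% of Veh-only loci. Of the loci with this motif, 264 of 361 KLA-only and 67 of 140 Veh-only ones lay in promoters. The mean GC content was 50.6% at KLA-only, 47.8% at Veh-only and 49.4% at shared loci, against 41.7% over tiles, and its part in these differences was not tested. IRF (GAAANNGAA) was at 9.31% and 7.92%, against 7.99% of tiles. NFAT (TGGAAAA) was at 5.25% and 4.599%, below the 6.76% of tiles. The Egr motif (GCGTGGGCG) was at 0.462% and 0.182%, against 0.0125%. The E-box (TCACGTG), at 3.35% and 3.34%, and the SRF CArG box, at 1.51% and 1.42%, gave differences of 0.0145 points (-0.653 to 0.678) and 0.0825 points (-0.366 to 0.528).

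The 8 KLA-only loci with the highest counts had 108 to 149 in KLA. The strongest lay at chr1:173955180-173955415, at -12625 bp from the TSS of Ifi203, an interferon-inducible gene of the PYHIN family. Its Jun count was 149 in KLA. ATF3, JunD and Fos had counts of 284, 300 and 463 there in KLA, ATF3 and JunD had no peak in Veh, and JunB had none in either list. In C57BL/6 the Jun KLA count was 32.

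The next, at chr12:85513707-85513936, lay 39931 bp downstream of the TSS of Fos, the immediate-early AP-1 gene. Its Jun count was 129 in KLA, and 110 in the KLA list of C57BL/6, with no peak in either Veh list. ATF3 and JunD were present there in Veh with counts of 28 and 51 and in KLA with 234 and 244. Fos and JunB had counts of 388 and 197. All 4 other members thus had a peak there in KLA, and 2 of them in Veh.

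A peak in intron sequence of Cd44, the hyaluronan receptor of leukocytes (chr2:102873364-102873635), had a Jun count of 112 in KLA and of 104 in C57BL/6. ATF3, JunD, Fos and JunB reached 198, 226, 351 and 197 in KLA, with no ATF3 or JunD peak in Veh. The locus at -4259 bp from the TSS of Ccl5, a chemokine for T cells and monocytes (chr11:83534618-83534936), had a count of 108, with 67 in C57BL/6. JunD had a Veh peak there with a count of 27. An intron of Ptprj, a receptor tyrosine phosphatase (chr2:90545339-90545542), also had 108, with 100 in the KLA and 28 in the Veh list of C57BL/6.

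Tmcc3 (chr10:94545644-94545876), Dcakd and Med13l (chr5:118459034-118459289, a Mediator subunit gene) complete the 8, with counts of 121, 111 and 110. Jun had a Veh peak in C57BL/6 at each of these, with counts of 41, 114 and 39. In all, 4 of the 8 KLA-only loci, these 3 and Ptprj, carried a C57BL/6 Veh peak, while 7 of 8 carried a KLA peak. An exact TRE lay in the central window at Ifi203, Cd44, Med13l and Ptprj, and an NF-κB motif at Cd44, Ccl5 and Ptprj.

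The 8 strongest Veh-only loci had Veh counts of 94 to 128. Lgals3, which encodes galectin-3, had a Jun count of 128 in Veh at chr14:47371733-47371965, at -1964 bp from its nearest TSS. Iqgap1, a scaffold protein of the actin cytoskeleton, had 125 at chr7:80830466-80830783, at -27208 bp. The others were near Dppa3 (113), Zmiz1 (105), Por (104, the electron donor of cytochrome P450 enzymes), Dhrs3 (100, a retinal reductase), Camk2d (99) and Dcakd (94). Central windows at Lgals3, Iqgap1, Dppa3, Zmiz1 and Camk2d held an exact TRE, and the one at Iqgap1 also an NF-κB motif.

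These loci had no Jun peak in the KLA list of BALB/cJ, but none of them was empty after KLA. Fos had KLA counts of 168 to 389 at all 8, JunD of 88 to 238, and JunB of 67 to 201. ATF3 had KLA counts of 154 to 321 at 7 of them, the exception being Dcakd. Jun itself had a KLA peak in C57BL/6 at each of the 8, with counts of 44 at Dhrs3, 61 at Dppa3, 69 at Camk2d, 75 at Zmiz1, 83 at Por, 92 at Lgals3, 96 at Dcakd and 145 at Iqgap1. At Lgals3 the C57BL/6 Jun counts were 99 in Veh and 92 in KLA. In the BALB/cJ lists JunD at Lgals3 had 270 in Veh and 222 in KLA, and ATF3 139 and 184.

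Gene lists were read by the nearest TSS of a protein coding gene within 100 kb, which covered 14906 loci, 35.2% of them KLA-only, 32.4% shared and 32.3% Veh-only. These lists were chosen with earlier results of these data known, and their shares are given without a test. Over all 13 lists, 213 of 246 genes had at least 1 Jun locus, against 6273 of all 21840 protein coding genes. Of the 915 loci of the 13 lists 340 (37.2%) were KLA-only, 338 (36.9%) shared and 237 (25.9%) Veh-only.

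**Figure D4:**
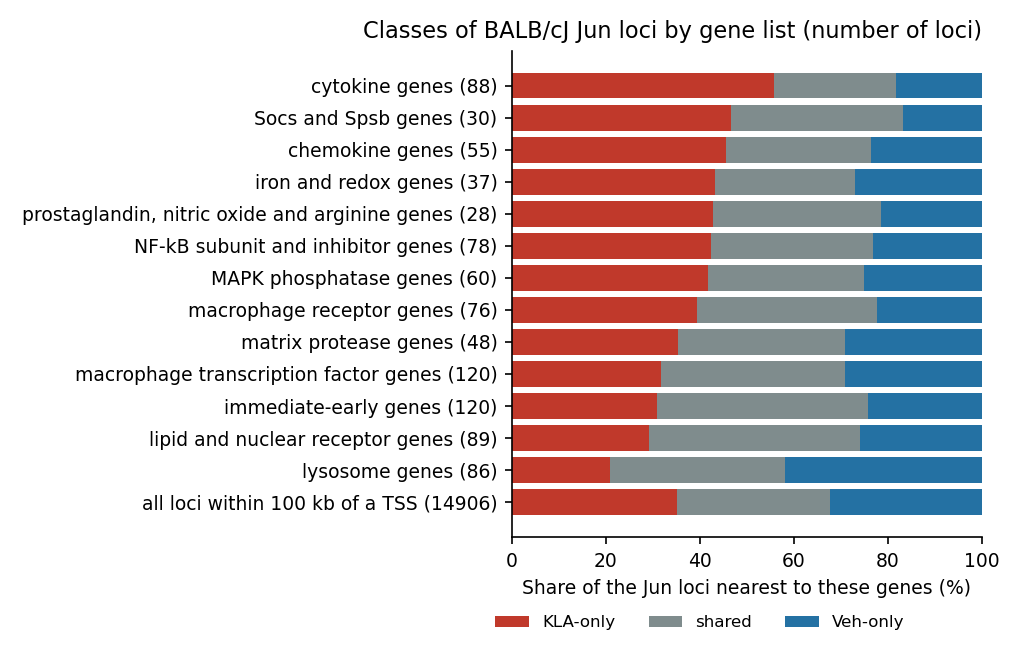
Share (x axis, percent) of the Jun loci nearest to the genes of each list that were KLA-only (red), shared (grey) or Veh-only (blue), with the number of loci in parentheses. The bars start at 0 and sum to 100. Cytokine genes have the highest KLA-only share, 55.7%, and lysosome genes the lowest, 20.9%, with 35.2% over all loci.

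Cytokine genes had the highest KLA-only share of the 13 lists. Of 88 loci at cytokine genes 49 (55.7%) were KLA-only and 16 (18.2%) Veh-only. Of the 22 cytokine genes 21 had a Jun locus and 20 at least 1 KLA-only locus. Over all protein coding genes 3456 of the 6273 with a locus had a KLA-only one, and over the 13 lists 157 of 213. Chemokine genes had 25 KLA-only loci of 55 (45.5%). At Ccl5 all 7 loci were KLA-only, with counts of 62, 53, 35, 108, 54, 25 and 33, and each had a KLA peak and no Veh peak in C57BL/6. They lay between 2349 and -20018 bp from the TSS. The loci of Ccl5, Il27, Dusp2, Il1b, Nfkbia, Jun, Jund, Junb and those of Tnf other than its strongest Veh-only one are named after their values were seen. Il27, an interleukin of the IL-12 family, had 5 loci, all KLA-only as well.

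Il1a and Tnf showed both directions. At Il1a the strongest KLA-only locus (chr2:129330690-129330941) had a count of 84, and the strongest shared locus (chr2:129319994-129320491) had 42 in Veh and 112 in KLA, a shift of 25.4 points. At Tnf, a KLA-only peak at -119 bp had a count of 77 and another at -663 bp a count of 32, while a Veh-only peak 1345 bp into the gene had 63. The C57BL/6 counts there were 58 and 35 in KLA without a Veh peak, and for the last 57 in Veh and 24 in KLA. Il1b, the gene of interleukin-1β, had a shared promoter peak at -106 bp with 34 in Veh and 91 in KLA, a shift of 37.4 points. Among chemokines, Ccl2 had a shared locus (chr11:82016446-82016849) with 32 in Veh and 106 in KLA, and Ccl4 had the strongest Veh-only one (66, at 1179 bp). Cxcl10, whose product attracts T cells, had KLA-only peaks at -118 and -723 bp and no other locus.

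Genes of signalling regulators come next by role. Genes of NF-κB subunits and inhibitors had 78 loci, 33 of them KLA-only (42.3%) and 18 Veh-only (23.1%). Of the 27 shared loci, 10 shifted up by 25 points or more and 2 shifted down. Over the 13 lists 58 of 338 shared loci shifted up and 30 down. Among all 4833 shared loci within 100 kb of a TSS 747 shifted up and 620 down. Tnip1, an inhibitor that works with A20, had the strongest KLA-only locus, at 1957 bp (count 105), and Tnfaip3 the strongest shared one (94 in KLA, 80 in Veh). The strongest Veh-only one (69) was at Tnfaip2, which the list holds though it encodes neither a subunit nor an inhibitor. Tnfaip2 gave 3 of the list's 18 Veh-only loci. Nfkbia, which encodes IκBα, had a KLA-only peak at -159 bp with a count of 64. MAPK phosphatase genes had 25 KLA-only loci of 60 (41.7%). Dusp1 alone held the highest count in each class, with 82 at a KLA-only, 106 and 83 (KLA and Veh) at a shared and 60 at a Veh-only locus. At Dusp2 all 4 loci were KLA-only. Socs and Spsb genes, which encode inhibitors of cytokine signalling and relatives with the same domain, had 14 KLA-only loci of 30 (46.7%), led by Cish at 126 bp (59). With loci taken in the gene body and 5 kb on each side instead of by the nearest TSS, the KLA-only share of this list was 20% (7.05 to 45.2), below the 35.2% over all loci, so its lean depends on how loci are assigned. Socs1 had a shared locus with 101 in KLA and 111 in Veh. Spsb1 had a KLA-only locus at 64209 bp (42) and a shared one at 48435 bp (35 in KLA, 28 in Veh), and none within 5 kb. Spsb3 had none by either rule.

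Among transcription factor genes, immediate-early genes had 54 shared loci of 120 (45%), 37 KLA-only (30.8%) and 29 Veh-only (24.2%). The AP-1 genes Jun and Jund were bound in both lists at their promoters. Jun had counts of 71 in Veh and 85 in KLA at -87 bp, and Jund 68 and 88 at -168 bp. Atf3 had 6 shared loci, the strongest at -12724 bp with 115 in Veh and 113 in KLA, 1 KLA-only and 3 Veh-only. Fos had 6 KLA-only, 4 shared and 5 Veh-only loci. Junb had a KLA-only peak at -156 bp with a count of 32, and Klf6 the strongest Veh-only locus of the list (64). Macrophage transcription factor genes had 38 KLA-only (31.7%), 47 shared and 35 Veh-only loci of 120. Runx1 held their strongest shared locus, with 135 in KLA and 74 in Veh, and Nfe2l2, the regulator of the oxidative response, their strongest KLA-only one (68). The strongest Veh-only one was also at Runx1 (74).

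Lysosome genes had more Veh-only loci than any other list, by share. Lysosome genes had 36 Veh-only loci of 86 (41.9%) and 18 KLA-only (20.9%). Atp6v0d2, a subunit of the proton pump, had 6 Veh-only loci, the strongest with a count of 74, and 1 KLA-only. The shared locus of Ctsk, the gene of cathepsin K, had 102 in KLA and 87 in Veh. The strongest KLA-only locus of the list, nearest to the TSS of Ctsb, had 52. Lipid and nuclear receptor genes had 26 KLA-only loci of 89 (29.2%), 40 shared and 23 Veh-only. Among them Olr1, a receptor for oxidised LDL, had a KLA-only promoter peak at -98 bp with a count of 103, and Cd36, a fatty acid receptor, a shared peak with 101 and 73. Msr1 had their strongest Veh-only locus (55).

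The remaining lists lay between. Macrophage receptor genes had 30 KLA-only loci of 76 (39.5%), 11 of them at Cd44. The strongest shared locus, at Cd44, had 95 in KLA and 72 in Veh, and the strongest Veh-only one, near Fcgr1, had 50. Prostaglandin, nitric oxide and arginine genes had 12 of 28 (42.9%), with Alox5ap (76) as the strongest KLA-only, Acod1 (122 in KLA, 60 in Veh) as the strongest shared and Arg2 (41) as the strongest Veh-only locus. Iron and redox genes had 16 of 37 (43.2%), led by the metallothionein gene Mt2 (74, at -1052 bp), with Slc11a1 (76 in KLA, 39 in Veh) as the strongest shared and Gclc (58) as the strongest Veh-only locus. Fth1, the ferritin heavy chain gene, had 2 KLA-only loci, at -2052 bp (35) and -25529 bp (34), 1 shared locus at -5432 bp (72 in KLA, 61 in Veh) and 3 Veh-only loci (25, 33 and 27). Matrix protease genes had 17 of 48 (35.4%), with the urokinase gene Plau holding the strongest KLA-only (63) and shared (109 and 75) loci and Adam17 the strongest Veh-only one (48).

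By number of loci, and named after these values were seen, the genes with the most KLA-only loci were Cd44 (11), Arid5b, Cd47 and Dock10 (10 each) and Tns3 (9). Those with the most Veh-only loci were Lpp and Plxna1 (9 each) and Irf2, Klf6 and Rgs1 (8 each). Tbc1d14 had 6 Jun loci, all Veh-only. Large genes collect more loci, so these numbers were not compared with a background.

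At the 5469 shared loci the counts in KLA and Veh ran together, with a Spearman rho of 0.582 and a Pearson r of 0.619 across loci, which share libraries and are not independent. The median shift in rank was -0.12 points, with quartiles of -13.7 and 14.8. A rise of 25 points or more was seen at 857 loci (15.7% of the shared loci) and a fall of 25 points or more at 734 (13.4%). In C57BL/6, 540 of the rising loci had a shift, and 422 of them (78.1%) had a positive shift there, with a median of 17.4 points. Of 448 falling loci with a shift there, 393 (87.7%) had a negative shift, with a median of -21.1 points. Over all 3935 shared loci with a C57BL/6 shift, which needs exactly 1 overlapping C57BL/6 locus that is itself shared, 44.5% had a positive shift, and the shifts of the 2 strains had a Spearman rho of 0.528 and a Pearson r of 0.559. The peaks in the 2 strains come from separate libraries.

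**Figure D5:**
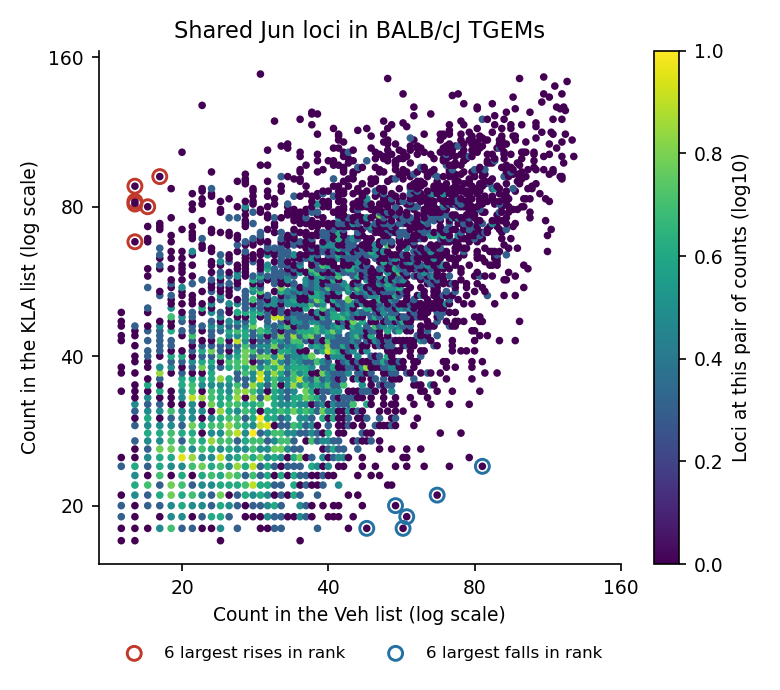
Counts of the 5469 shared Jun loci in the Veh list (x axis) and the KLA list (y axis), both on log scales. Each point is a pair of counts, coloured by the number of loci that have it. Rings mark the 6 largest rises (red, Veh counts of 16 to 18) and the 6 largest falls (blue, KLA counts of 18 to 24) in rank.

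The largest rise lay at -169 bp from the TSS of Fem1b, a substrate receptor of a ubiquitin ligase (chr9:62811945-62812262). Its count was 16 in Veh and 88 in KLA, a shift of 94.0 points. Cd47, the ligand that restrains phagocytosis, had 16 and 82 (92.2 points) at chr16:49938980-49939250. Tnfaip3, which encodes A20, had 16 and 81 (91.8 points) at -62513 bp. Lta, the lymphotoxin alpha gene, had 17 and 80 (88.5 points), Btg1 18 and 92 (88.3 points) and Kcnrg 16 and 68 (85.7 points). Their Veh counts lay at the low end of the list, whose lowest count is 15. In C57BL/6 all 6 had a KLA peak, with counts of 45 to 80. A Veh peak was present there at Cd47, Btg1 and Kcnrg, with shifts of 58.9, 62.2 and 47.3 points, and absent at Fem1b, Tnfaip3 and Lta. ATF3 in BALB/cJ KLA had counts of 118 to 188 at the 6 loci, against at most 61 in Veh.

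The largest fall lay in an intron of 2010111I01Rik (chr13:63108679-63109000), with 57 in Veh and 18 in KLA (-87.0 points). It was followed by a locus in an intron of Slc15a3 nearest to the TSS of Tmem132a (58 and 19, -85.3 points), and by Frmd4a (67 and 21, -83.5 points). 1700017B05Rik had 55 and 20 (-80.3 points), Gstm1, a glutathione transferase gene, 48 and 18 (-79.5 points), and Zfp704 83 and 24 (-78.3 points). The KLA counts of these loci, 18 to 24, lay at the low end of the KLA list, whose lowest count is 17. JunD in Veh had counts of 77 to 97 at the 6 loci, and in KLA of 29 to 48 at 5 of them with no peak at Gstm1. All 6 had a Veh peak in C57BL/6, and a KLA peak was found there only at 2010111I01Rik and Frmd4a, with shifts of -69.6 and -45.3 points.

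Rising and falling loci differed in some of the lists that covered them. ATF3 was present in Veh at 81.2% of rising and 91.8% of falling loci, JunB in KLA at 94.3% and 83.0%, PU.1 in Veh at 53.8% and 69.8%, and CEBPα in Veh at 32.1% and 44.4%. At the steady loci between them these shares were 92.1%, 92.1%, 68.2% and 48.3%. ATF3 in KLA was at 98.2% of both groups. The groups were chosen by rank, and coverage follows rank. In Veh, ATF3 covered 71.5% of shared loci in the lowest Veh tertile and 97.4% in the highest. The part of this choice in the differences was not tested. The NF-κB motif was present at 10.2% of rising (8.30 to 12.4) and 0.817% of falling loci (0.375 to 1.77). The TRE was at 40.8% and 43.3%. The highest KLA count of any shared locus, 148 at chr16:84627033-84627425 far from the TSS of Mrpl39, went with a Veh count of 29, a shift of 53.4 points. Itga5, an integrin gene, followed with 146 and 111, and Spryd7 with 145 and 53.

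Jun had a smaller share of shared loci than ATF3 or JunD. With all peaks the shared share was 32.6% for Jun (31.9 to 33.3), 39.1% for ATF3 (38.6 to 39.5) of 40481 loci and 39.9% for JunD (39.4 to 40.4) of 44648 loci. The Jun lists are shorter. With every list cut to its 10957 strongest peaks, the shared share was 32.9% for Jun (32.2 to 33.6), 47.4% for ATF3 (46.6 to 48.2) and 44.8% for JunD (44.0 to 45.6). At that length KLA-only loci made up 33.6% for Jun, 26.3% for ATF3 and 27.6% for JunD. The cut keeps all of the Jun Veh list, but only the strongest peaks of the ATF3 and JunD lists (36821 and 33850 peaks in KLA). In the Jun lists stronger peaks overlapped more often. The part of this choice in the difference was not tested. The antibodies and libraries of the 3 members differ, and replicates are lacking for each, so less reproducible lists and a larger change of binding cannot be told apart.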

How the data were processed

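ChIP-seq was performed with an antibody to Jun (sc-1694) on TGEMs of BALB/cJ mice. The authors mapped reads with Bowtie2 to a BALB/cJ genome shifted to mm10 coordinates, called peaks with HOMER against input and kept peaks with an IDR under 0.05 over replicate experiments. These tools are also named in the submitters' processing notes. The deposited lists give 1 whole-number count per peak, not scaled to library size, and the authors' scaled IDR score, from 540 to 1000. How replicate counts were combined is not given in the sources used here, and the library depth is unknown. From these lists, loci were formed with Python 3.11.15, numpy 2.4.6, pandas 2.3.3 and scipy 1.17.1, and plots with matplotlib 3.10.9. Ranks are percentiles of the count within a list. Positions and sequences came from GRCm38 with GENCODE genes, of which 21840 protein coding genes gave TSSs, and 1 Veh-only window with unknown bases was left out of motif shares. The functions were tested on simulated data. Genes were named by fixed rules: the 8 KLA-only and 8 Veh-only loci with the highest counts, 3 shared loci by KLA count, the 6 largest rises and 6 largest falls, the strongest locus of each class in each gene list, and Cxcl10, Fth1, Spsb1 and Spsb3. Members and lists were chosen with earlier results of these data known. Alternatives changed the overlap, the peaks kept, the motif window, the promoter distance and the measure of shift.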

Additional observations from a re-analysis of the deposited data

Results flagged for a closer look

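At some loci the direction was opposite in the 2 strains, and this difference between strains was not tested. There were 493 loci that were KLA-only for Jun in BALB/cJ and Veh-only in C57BL/6, with a median BALB/cJ count of 25. The strongest were near Dcakd (111), Klf6 (92) and Wee1 (72). There were 677 loci that were Veh-only in BALB/cJ and KLA-only in C57BL/6, with a median count of 24, the strongest near Arl8b (76), Pgd (71) and Srsf7 (68). At the Dcakd locus a Veh-only Jun peak of BALB/cJ (94) lay beside the KLA-only one. In C57BL/6 Jun had a KLA peak (96) on that neighbour and a Veh peak (114) on both. Each strain thus had Jun peaks in both lists at this site, and its opposite class rests on the overlap rule.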

How the results depend on the processing

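No paired analysis was possible because each condition has a single list with replicates already combined, and for the same reason no replicate could be left out. Of 93 alternatives for the 18 main values, 42 stayed within the interval or within 1.5 times the count and 51 moved, and of 81 for the 27 other values 9 moved. With gene bodies and 5 kb on each side in place of the nearest TSS, the KLA-only share of Socs and Spsb genes was 20% against 46.7%, on the other side of the 35.2% over all loci. With peak centres within 100 bp, ATF3 in Veh and JunD in KLA were at 35.3% and 83.8% of KLA-only and 68.4% and 65.4% of Veh-only loci, and 35.4% of KLA-only loci had a C57BL/6 KLA peak alone. With 50% reciprocal overlap the first 4 were 35.7%, 85.2%, 69.9% and 66.1%. With lists of equal length, JunD in KLA was at 90.1% of KLA-only loci and the C57BL/6 share was 38.3%. The strongest 50% of each list gave 2636 KLA-only, 3020 shared and 2457 Veh-only loci. There ATF3 in Veh and JunD in KLA stood at 35.6% and 96.7% of KLA-only and 78.7% and 72.8% of Veh-only loci, the TRE at 36.5% and 38.1%, the NF-κB motif at 12.4% and 1.30% and promoters at 12.9% and 7.69%. A C57BL/6 KLA peak alone was at 50.2% of KLA-only and a Veh peak alone at 33.5% of Veh-only loci. A count minimum of 33, the median over both Jun lists together, gave 3586, 2995 and 1849 loci. Loci whose weaker partner peak was dropped then count as KLA-only or Veh-only. The same shares were 58.6%, 97.5%, 91.7% and 85.9% for ATF3 and JunD, 35.8% and 39.2% for the TRE, 11.5% and 1.08% for NF-κB, 14.6% and 6.38% for promoters and 42.5% and 21.1% for C57BL/6. The TRE was at 22.2% of KLA-only and 23.5% of Veh-only central 100 bp windows, and with 1 mismatch at 72.4% and 73.3%, against 43.9% of tiles. Promoters of 3 kb held 29.4% and 17.6%, and TSSs of all genes gave 25% and 13.5%. By log2 ratio of the counts minus its median, with a threshold of 1, 294 shared loci rose and 162 fell. Beyond these constructions the cause was not tested.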

Other observations

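The X chromosome held 191 Jun loci, of which 97 were Veh-only (50.8%, 43.8 to 57.8) and 50 KLA-only (26.2%, 20.5 to 32.8). On the other chromosomes the Veh-only share lay between 29.1% and 34.6%. Within 10000 bp of a Veh-only locus lay 1241 KLA-only loci (21.2%, 20.2 to 22.3).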
